A study of Mus musculus with 8 samples.

Results

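The genes described here are 31 genes of glucose uptake, glycolysis and lactate handling, chosen by symbol from the 24532 genes of the expression tables: 3 glucose transporters, the isoenzymes of the steps from hexokinase to lactate dehydrogenase, their regulators Gckr and Pfkfb1 to Pfkfb4, and the monocarboxylate transporter Slc16a1. Male C57BL/6 mice gave the mRNA, taken from liver and from subcutaneous fat (adipose tissue below), with 2 WT and 2 MKRN1-null libraries per tissue and 8 libraries in all. The labels give an HFD started at 6 weeks of age and kept for 19 weeks, in MKRN1-null and WT mice alike, and an age of 24 weeks. On these labels the start and length of the diet do not add up exactly to the age. The HFD that the study describes for its obesity experiments is shorter, so the length of the diet is not settled. By the study's methods the null mice lacked MKRN1 in the whole body, had been backcrossed to C57BL/6 and were compared with WT littermates. The study's methods call the replicates of each condition independent, and the labels call them separate samples but name no animals. The p-values below therefore measure only the spread between these samples, and how much of it lies between animals is not stated.

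Glycolysis splits glucose into pyruvate in the cytosol, and most of its steps can be run by more than 1 isoenzyme, each the product of its own gene. The liver takes up glucose through the low-affinity transporter GLUT2 and holds an L-type pyruvate kinase that is controlled by diet and hormones, whereas adipocytes and muscle fibres take up glucose through the insulin-regulated transporter GLUT4. Muscle fibres carry their own forms of phosphofructokinase, phosphoglycerate mutase, enolase and pyruvate kinase, so that these genes also mark the cell types in a tissue sample. Levels are given as FPKM, the fragments of a gene scaled to its transcript length and to the size of its library, so that they can be compared between genes.

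Mkrn1 itself was at 9.42 and 10.1 FPKM in WT liver against 2.86 and 2.21 in null liver, and at 16.8 and 19.3 in WT adipose tissue against 4.58 and 2.90 in null adipose tissue. It was lower in every null library, and some reads remained. Alignments held 5.72 to 9.24 Gb per library, with the least in null adipose replicate 2. This library stands apart. A list of 15 skeletal muscle genes made up 21.1% of its FPKM, against 0.00835% in null adipose replicate 1 and 0.0123% and 0.0661% in the WT adipose libraries, so the members' adipose levels are given for each null library. The defining hepatocyte genes were abundant in every liver library, and the adipocyte genes in every adipose library, in null replicate 2 at a summed 17332 FPKM against 35429 and 39211 in WT. In bulk tissue fewer cells of a type and less RNA per cell cannot be told apart.

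In WT mice the 2 tissues differed at the entry of glucose, at phosphofructokinase control and at the exit to pyruvate. Liver used Slc2a2 (GLUT2), Gckr and Pklr, and adipose tissue used Slc2a4 (GLUT4), Pfkfb3 and Pkm. Aldoa was also far higher in adipose tissue, at 1277 and 1134 FPKM against 86.0 and 84.5 in liver. At Gpi1, Eno1 and Ldha the levels in the tissues were close, with Ldha at 680.0 and 817 FPKM in liver and 644 and 663 in adipose tissue.

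**Figure D1:**
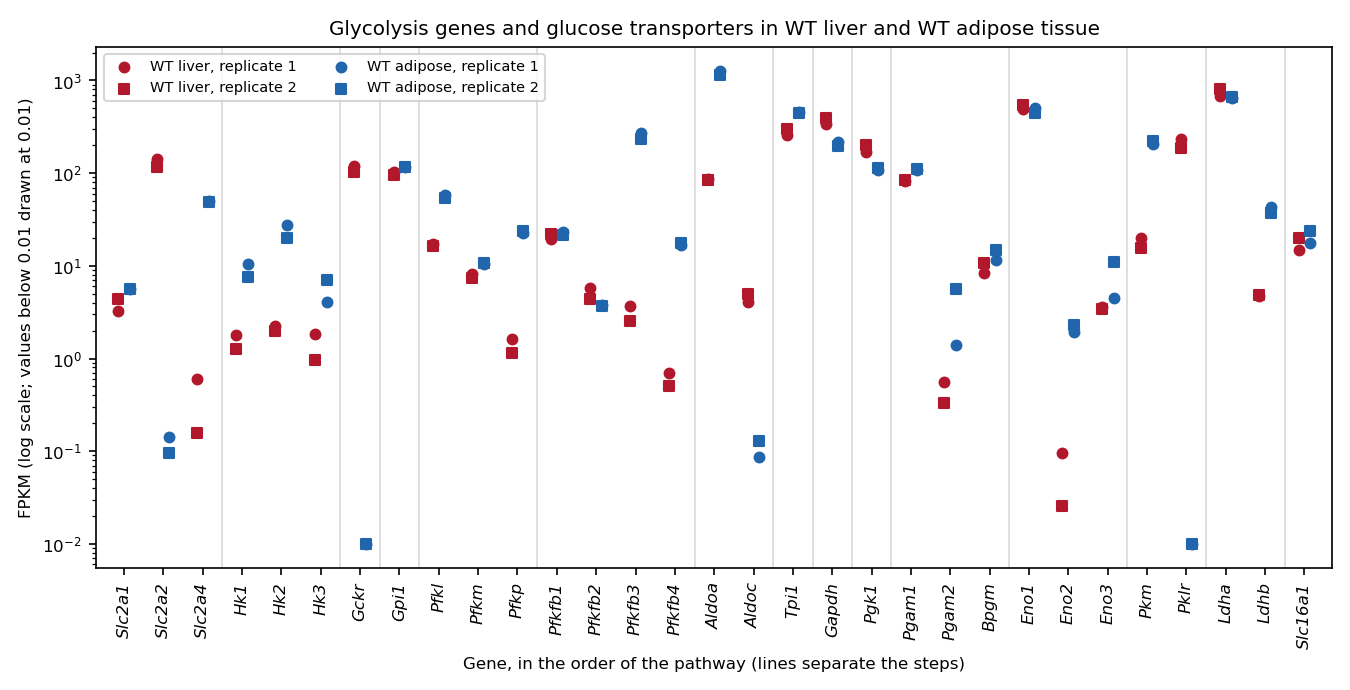
FPKM of the 31 genes (log scale) in the 2 WT liver libraries (red) and the 2 WT adipose libraries (blue), with circles for replicate 1 and squares for replicate 2. Slc2a2, Gckr and Pklr sit more than 100 FPKM in liver and near or at 0 in adipose tissue, whereas Slc2a4, Pfkfb3 and Aldoa are far higher in adipose tissue.

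Among the 3 glucose transporters, Slc2a2 was at 142 and 115 FPKM in the WT livers and made up 96.8% ± 0.815 (SD, n = 2) of their summed FPKM. In WT adipose tissue Slc2a2 was at 0.142 and 0.0966 FPKM. Slc2a4 was at 49.9 and 49.1 FPKM there and made up 89.6% ± 0.0566 (SD, n = 2), against 0.599 and 0.159 FPKM in liver. Slc2a1 (GLUT1, the transporter of basal uptake) was low in both tissues, at 3.28 and 4.41 FPKM in liver and 5.62 and 5.61 in adipose tissue. These are the shares among the listed genes only. Hexose transporters outside the 3 were present too. Slc2a8 was at 7.56 and 7.52 FPKM in WT liver and 16.9 and 15.7 in WT adipose tissue. Slc2a9 was at 13.2 and 10.6 FPKM in WT liver. A step can also have isoenzymes that were not analysed here. For hexokinase and aldolase, levels are therefore given without shares.

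Hexokinases trap glucose in the cell by phosphorylation. In WT adipose tissue Hk2, the insulin-responsive form, led with 27.6 and 19.8 FPKM, followed by Hk1 with 10.6 and 7.67 and Hk3 with 4.04 and 7.11. In WT liver none of the 3 passed 2.25 FPKM. Gckr, a liver protein that holds a hexokinase inactive in the nucleus, was at 121 and 104 FPKM in liver and was listed at 0 in every adipose library.

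Phosphofructokinase makes fructose-1,6-bisphosphate and is the main control point of the pathway. Pfkl, its liver-type gene, held 64.7% ± 1.58 (SD, n = 2) of the step in WT liver and 62.2% ± 2.36 in WT adipose tissue, so that its share overlapped between the tissues. The second place differed. In liver it was Pfkm, the muscle-type gene, with 29.9% ± 0.519, and in adipose tissue it was Pfkp, the platelet-type gene, with 26.0% ± 1.66. The larger contrast lay in the bifunctional enzymes that make and remove fructose-2,6-bisphosphate, the activator of phosphofructokinase. Pfkfb1 held 70.2% ± 6.48 of the 4 genes in WT liver, with 19.5 and 21.9 FPKM. Pfkfb3 held 85.2% ± 1.12 in WT adipose tissue, with 270.0 and 232 FPKM against 3.73 and 2.53 in liver. Pfkfb1 itself was as high in adipose tissue as in liver, at 23.2 and 21.4 FPKM, so that the change of leading gene came with the level of Pfkfb3.

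Pyruvate kinase gave the sharpest switch. Pklr was at 236 and 189 FPKM in the WT livers, where it made up 92.2% ± 0.103 (SD, n = 2) of the step, and at 0.00787 and 0 in WT adipose tissue. Pkm was at 205 and 220.4 FPKM in WT adipose tissue and at 20.1 and 15.8 in WT liver. Pklr has 2 annotated starts. In the WT livers the downstream one, which gives the L-type transcript, carried 227 and 184 FPKM, and the upstream one, the start of the erythrocyte R-type, 8.30 and 5.45. The RefSeq window of the downstream start (250 bases before it and 50 from it on, plus strand, chr3:89136373-89136672, mm10) is shown because the liver level of the step rests on it.
Pklr, downstream start: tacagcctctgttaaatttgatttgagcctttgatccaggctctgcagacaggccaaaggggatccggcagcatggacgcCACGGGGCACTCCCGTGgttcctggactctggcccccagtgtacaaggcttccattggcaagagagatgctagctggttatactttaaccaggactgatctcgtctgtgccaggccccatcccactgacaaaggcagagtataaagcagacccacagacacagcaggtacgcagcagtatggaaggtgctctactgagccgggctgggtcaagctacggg
The capitals mark a pair of half-sites, CACGNG and CNCGTG with 5 bases between them, a form of the carbohydrate response element to which ChREBP and Mlx are known to bind. They begin 170 bases upstream of the start. Both strands were searched. Such half-sites are held by 0.0457% of the 32851 windows of all mouse genes. Among the 31 members 30 matched a window (Slc2a4 did not), and Pklr is the 1 that holds them. The match is a description of the sequence, not of binding. Mlxipl, the gene of ChREBP, was at 91.4 and 77.8 FPKM in WT liver against 24.4 and 24.3 in WT adipose tissue.

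Pkm makes 2 enzymes from 1 gene by a choice between 2 exons of equal length, each the ninth exon of its transcript, M1 in muscle and M2 in most other tissues. They are shown because the adipose results below turn on which of them was read. The M1 exon lies at chr9:59675029-59675195 and the M2 exon at chr9:59675568-59675734 (mm10, plus strand, from GENCODE transcripts), and capitals mark the 64 of 167 positions at which they differ.
Pkm M1 exon: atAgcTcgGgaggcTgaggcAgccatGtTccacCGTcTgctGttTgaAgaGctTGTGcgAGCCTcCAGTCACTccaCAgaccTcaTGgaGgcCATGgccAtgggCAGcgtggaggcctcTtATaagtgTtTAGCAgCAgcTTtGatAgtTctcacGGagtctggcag
Pkm M2 exon: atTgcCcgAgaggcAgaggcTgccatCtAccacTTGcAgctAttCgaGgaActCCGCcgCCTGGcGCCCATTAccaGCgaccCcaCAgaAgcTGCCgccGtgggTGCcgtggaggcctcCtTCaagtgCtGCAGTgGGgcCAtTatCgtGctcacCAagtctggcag
In WT adipose tissue the M2 form was at 137 and 166 FPKM and the M1 form at 67.9 and 54.0. In WT liver M2 was at 14.9 and 12.1 and M1 at 5.19 and 3.69. M2 led in all 4 WT libraries. The split between transcripts of a gene is an estimate by StringTie, but the coverage of the alternative exons themselves gave the same order, with M2 at 83.2% and 85.6% of it in the WT livers and 74.9% and 74.7% in WT adipose tissue.

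The other steps were led by 1 isoenzyme in both tissues. Eno1 held 99.3% of enolase in WT liver and 97.9% in WT adipose tissue, Pgam1 89.3% and 86.9% of the phosphoglycerate mutases, and Ldha 99.4% and 94.3% of lactate dehydrogenase (means of 2 libraries). Ldhb, whose enzyme favours the use of lactate, was at 42.7 and 36.8 FPKM in WT adipose tissue against 4.68 and 4.79 in liver. Pgam2 and Eno3, the muscle forms, varied between the WT adipose libraries, with 1.39 and 5.59 FPKM for Pgam2 and 4.51 and 11.0 for Eno3, and in both the higher value was in replicate 2, the WT library with more of the muscle list. Tpi1, Gapdh and Pgk1 have no isoenzyme among the members and were above 100 FPKM in all WT libraries. Aldoc, the brain-type aldolase, was at 4.07 and 4.96 FPKM in liver and below 0.13 in adipose tissue.

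Between WT adipose tissue and WT liver 12799 genes were tested. The fit was made with limma on log2(FPKM + 1), and all adjusted p-values are those of Benjamini and Hochberg. Of the 31 members 17 were higher in adipose tissue, 6 were lower and 8 did not pass at an adjusted p of 0.05, where 62.3% of all genes tested were higher and 17.9% lower. Both adipose libraries lay above both liver libraries in 20 members (69.9% of all genes), below them in 8 (21.2%) and overlapped in 3. The members' median log2 difference was 0.46, and that of all genes 0.59. Libraries of the 2 tissues differ in composition, and with median-of-ratios scaling, which moved the median of all genes by -0.60, 12 members were higher and 12 lower. Of the called members, Slc2a1, Pfkm, Pgam1 and Tpi1 (higher by FPKM) changed sign under that scaling. On the log2 scale the higher members with the largest differences were Pfkfb3 (5.94 ± 0.17, SE, adjusted p = 1.25e-05), Slc2a4 (5.21), Aldoa (3.80), Pfkfb4 (3.53), Pkm (3.51), Pfkp (3.36), Hk2 (2.97), Ldhb (2.83), Hk1 (1.99) and Pfkl (1.68), with adjusted p from 9.03e-06 to 0.000503. These kept their sign under every alternative in which they were fitted. The lower ones were Pklr (-7.72 ± 0.13, SE, adjusted p = 2.70e-06), Slc2a2 (-6.85), Gckr (-6.82), Aldoc (-2.31), Gapdh (-0.81) and Pgk1 (-0.73), with adjusted p from 2.49e-06 to 0.00335. For genes near 0 in 1 tissue these differences are set by the pseudocount of 1 and understate the contrast. Pklr, Slc2a2, Gckr and Aldoc were below 1 FPKM in both WT adipose libraries. Slc2a4, Pfkfb4, Pgam2 and Eno2 were below it in both WT livers. All of these passed the filter only through the tissue in which they are high. Their p does not stand as independent support, and the counts of 17 and 6 include them.

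**Figure D2:**
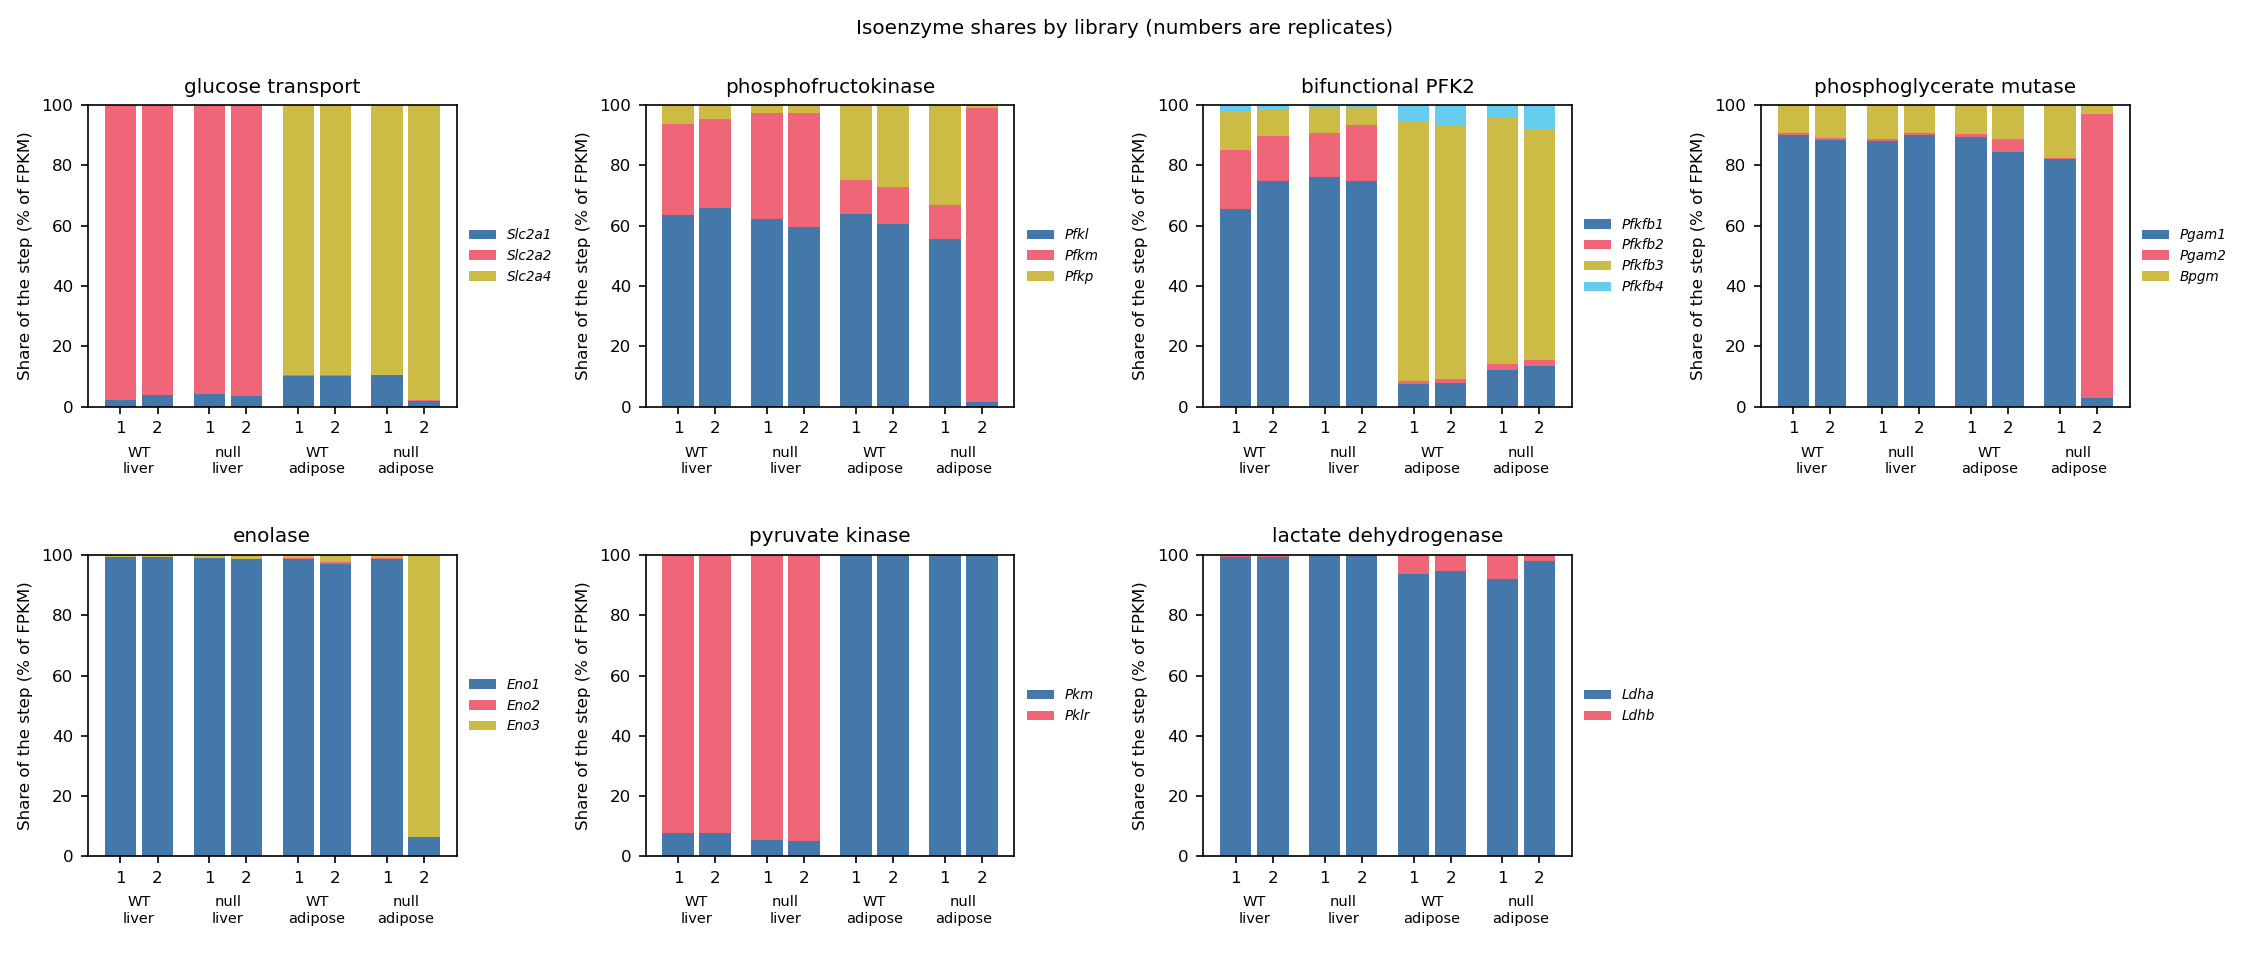
Share of each step (% of the FPKM of the listed genes) in each of the 8 libraries, for 7 steps with several members. Hexokinase and aldolase are not drawn, since their listed genes need not be the whole step. The same can hold for the drawn steps, as Slc2a8 is a hexose transporter outside the list. The liver and WT adipose patterns repeat between replicates, whereas null adipose replicate 2 is filled by Pfkm, Pgam2 and Eno3.

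In MKRN1-null liver 12 of the 26 members tested fell and 0 rose, where 16.9% of all genes tested were lower and 2.51% higher. Of the 12, 6 were called under median-of-ratios scaling and 0 without null replicate 2. The 31 genes made up 0.525% and 0.547% of all FPKM in the WT livers and 0.367% and 0.316% in the null livers, with no overlap between the genotypes. Members of low level in liver, Hk2, Pkm, Ldhb and Slc16a1, had the steepest fitted falls, and among the abundant ones Gpi1, Eno1, Pklr and Gapdh fell. The transporter Slc2a2 and the regulators Gckr and Pfkfb1 did not pass the test. The leading gene stayed the same in the 7 steps whose shares are drawn in the plot of isoenzyme shares. Among the 3 listed hexokinases the order changed, since Hk2 was the highest in both WT livers and the lowest in both null livers, with each of them below 1 FPKM there.

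Hk2 was at 2.25 and 1.98 FPKM in the WT livers and at 0.186 and 0.180 in the null livers. Its mean in null liver was 0.0867 of the WT mean (log2 fold change -1.39 ± 0.11, SE, adjusted p = 0.00976). Hk2 passed the filter only through the WT libraries, in which it is high, so that its p does not stand as independent support. Hk1 was lower in both null livers too (1.78 and 1.28 against 0.849 and 0.747 FPKM) but did not pass (adjusted p = 0.0682). Hk3 was below the filter. Gckr was at 121 and 104 FPKM in WT and at 101 and 91.8 in null liver, and did not pass (adjusted p = 0.215).

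Pkm was at 20.1 and 15.8 FPKM in the WT livers and at 6.76 and 6.81 in the null livers (-1.27 ± 0.13, SE, adjusted p = 0.0135). Both its forms were lower, M2 at 14.9 and 12.1 against 5.06 and 5.02 FPKM and M1 at 5.19 and 3.69 against 1.70 and 1.79, so that the fall was not limited to 1 form. Pklr, the main pyruvate kinase of the liver, was at 236 and 189 FPKM in WT and at 121 and 130.1 in null liver (-0.75 ± 0.13, SE, adjusted p = 0.0276). Its L-type transcript, whose window is shown above, was at 227 and 184 against 114 and 127 FPKM, whereas the values of the R-type transcript overlapped (8.30 and 5.45 against 7.34 and 3.44). Since Pkm fell more than Pklr, its share of the step went from 7.84% and 7.70% to 5.29% and 4.97%.

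At the end of the pathway, Ldhb was at 4.68 and 4.79 FPKM in WT and at 1.35 and 1.60 in null liver (-1.22 ± 0.10, SE, adjusted p = 0.0102). Slc16a1 (MCT1, which carries lactate and pyruvate across the cell membrane) was at 14.9 and 19.9 FPKM in WT and at 7.70 and 7.01 in null liver (-1.13 ± 0.16, SE, adjusted p = 0.0188). Ldha, the most abundant member in liver, was at 680.0 and 817 FPKM in WT and at 611 and 474 in null liver, lower in both null libraries but not past the test (adjusted p = 0.110).

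In the upper and middle steps, Gpi1 (phosphoglucose isomerase) was at 104 and 95.0 FPKM in WT and at 49.9 and 47.8 in null liver (-1.01 ± 0.09, SE, adjusted p = 0.0106). Eno1 was at 492 and 548 FPKM in WT and at 298 and 248 in null liver (-0.93 ± 0.13, SE, adjusted p = 0.0185). Gapdh was at 342 and 390.3 FPKM against 243 and 199 (-0.73 ± 0.14, SE, adjusted p = 0.0301). The null values lay well below both WT values in each of these. Aldoa (-0.58 ± 0.08, SE, adjusted p = 0.0188), Pgam1 (-0.58 ± 0.08, adjusted p = 0.0193) and Pfkl (-0.55 ± 0.08, adjusted p = 0.0191) also fell. Pfkp (-0.67 ± 0.14, adjusted p = 0.0358) passed the test too, at 1.63 and 1.15 FPKM in WT and 0.479 and 0.508 in null liver, but like Hk2 it passed the filter only through the WT libraries. Pfkl was at 17.0 and 16.6 FPKM in WT and 11.1 and 11.2 in null liver, while Pfkm, the next gene of the step, was at 8.09 and 7.43 against 6.24 and 7.04 and did not pass. Tpi1 (259.7 and 297 against 223 and 196 FPKM), Pgk1 (167 and 203 against 141 and 131) and Bpgm (8.45 and 10.6 against 7.34 and 5.54) were lower in both null livers without passing, with adjusted p of 0.0693, 0.0647 and 0.0973. Slc2a2 (142 and 115 against 118 and 107 FPKM), Slc2a1 (3.28 and 4.41 against 5.31 and 3.91) and Pfkfb1 (19.5 and 21.9 against 24.4 and 19.6) overlapped between the genotypes, as did Pfkfb2, Pfkfb3 and Eno3. The glucose transporters and bifunctional enzymes that were tested therefore gave no call in liver. Slc2a4 and Pfkfb4 were below the filter and could not be called. Pfkfb4 was at 0.693 and 0.501 FPKM in WT and 0.183 and 0.136 in null liver, and the values of Slc2a4 overlapped. Read assignment between near-identical copies is uncertain for Gapdh, Eno1, Ldha and other members with processed copies in the genome. Eno1b, a copy of Eno1, was listed at 4.02 to 4.71% of Eno1 in all 8 libraries.

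**Figure D3:**
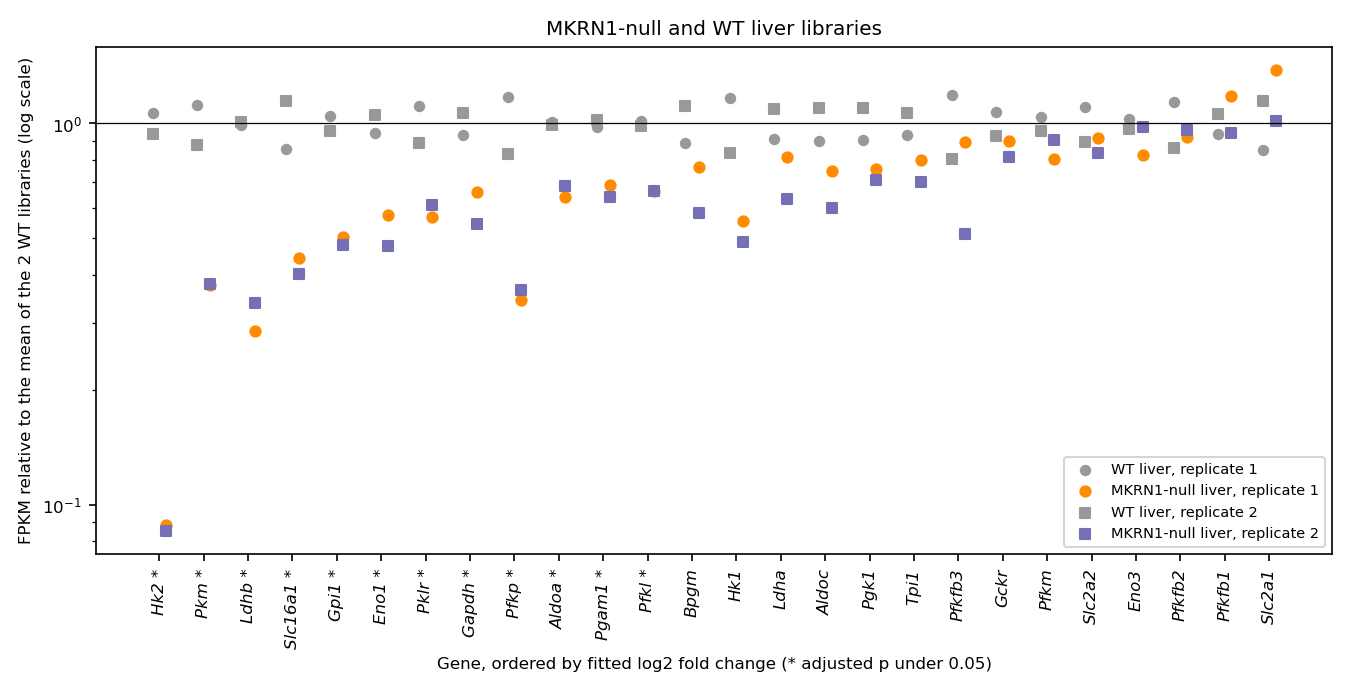
FPKM of the 26 members tested in liver, relative to the mean of the 2 WT libraries (log scale), with WT libraries in grey and null libraries in orange and purple. For the 12 members marked with an asterisk (adjusted p under 0.05) both null libraries lie below both WT libraries, Hk2 lowest.

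Of 31 members 26 were tested in liver (10822 genes in all), and 12 were lower, 0 higher and 14 did not pass. Over all genes tested 16.9% were lower and 2.51% higher, so the share of members called lower was above the background, but the members were not a random sample of genes and no test was made of the list. Both null libraries lay below both WT libraries in 20 members and above them in 0, against 57.5% and 11.8% of all genes. The median log2 fold change was -0.50 over the members and -0.17 over all genes. At the limits of fold change and p that the study used, here applied to limma (unadjusted p of at most 0.05 and a log2 fold change of at least 0.58), 11 members were lower and 0 higher, where 13.4% of all genes were lower and 2.25% higher. The members not tested for low level were Slc2a4, Hk3, Pfkfb4, Pgam2 and Eno2, each below 2 FPKM in all liver libraries. Hk1, Hk2 and Pfkp entered the test through the WT libraries alone, in which they reached an FPKM of 1. Without Hk2 and Pfkp 10 members were called. With a filter at an FPKM of 5, which left out Hk2, Pfkp and Ldhb, the other 9 were called. Scaling each library by the median of ratios moved the median of all genes to 0.0043 and left 6 members called (Hk2, Pkm, Ldhb, Slc16a1, Gpi1 and Eno1), all lower, where 7.43% of all genes were. The calls also depended on single libraries. Without null replicate 2 there were 0 calls (adjusted p 0.0638 to 0.166 for the 12 members, with 0.456% of all genes lower), without null replicate 1 there were 5 (3.24%), and without WT replicate 1 there were 4 (4.11%, of 10 fitted, since Hk2 and Pfkp then fell under the filter).

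Cell type markers were read beside these members. For comparison, both null livers lay below both WT livers in 57.5% of all genes tested and above them in 11.8%. All 5 macrophage genes were lower in both null livers, with 285 and 228 FPKM summed in the WT livers against 89.3 and 89.1 in the null livers. All 3 endothelial genes were lower, with 30.2 and 19.0 against 12.9 and 15.8 FPKM. Of the 7 adipocyte genes 3 were lower, 1 higher and 3 overlapped, and their sum, carried by Cidec and Fabp4, was 153 and 138 against 37.7 and 23.2 FPKM. The 8 hepatocyte genes summed to 67750 and 60899 FPKM in WT and 75493 and 78038 in null liver, with 5 higher and 1 lower. The part of macrophages, endothelial cells and adipocytes in the members' values was not tested.

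Of 55 listed neighbours (regulators, other transporters and kinases, the pentose phosphate branch, monocarboxylate transport and mitochondrial pyruvate entry) 47 were tested, 19 were lower and 0 higher, where 16.9% of all genes were lower and 2.51% higher. Their median log2 fold change was -0.36, and that of all genes -0.17. Pdk4, the kinase that shuts off pyruvate dehydrogenase, had the largest fall, from 8.41 and 10.1 to 1.44 and 0.719 FPKM (-2.32 ± 0.20, SE, adjusted p = 0.0107). Pgd of the pentose phosphate branch (-1.39), the monocarboxylate transporter Slc16a13 (-1.21) and Myc (-1.07) followed. Slc16a13 and Myc were below 1 FPKM in both null livers and so passed the filter only through the WT libraries. As for Hk2, their p does not stand as independent support. In the pentose phosphate branch 5 of 8 genes were lower. The regulators of the family passed in 1 of 9 cases, Myc. Mlxipl was at 91.4 and 77.8 FPKM in WT and at 98.7 and 130.3 in null liver and did not pass (adjusted p = 0.130).

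In MKRN1-null adipose tissue the 2 null libraries did not show the same pathway. Null replicate 1 held the WT pattern of isoenzymes, with most members near the WT level, whereas null replicate 2 held the isoenzymes of skeletal muscle. By limma 0 of 27 members tested passed an adjusted p of 0.05, as did 0 of 12164 genes (0%), and 2 members had an unadjusted p under 0.05, where 6.45% of all genes did. Mkrn1 itself did not pass in this fit (-2.02 ± 0.26, SE, adjusted p = 0.680). The lack of calls therefore does not show a lack of difference. The adjusted p of the members ran from 0.680 to 0.892. Their median log2 fold change was 0.24, and that of all genes -0.20. The 4 members not tested were Slc2a2, Gckr, Aldoc and Pklr, each below 1 FPKM in all 4 libraries.

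In null replicate 1 the 31 genes summed to 0.802% of all FPKM, against 0.891% and 0.807% in WT. Of 27 tested members 9 lay above both WT libraries (30.2% of all genes did), 11 below both (44.8%) and 7 between them, and 3 differed by over 1.5-fold from the WT mean on the log2(FPKM + 1) scale, as 7.03% of all genes did. The median log2 difference from the WT mean was -0.07 over the members and -0.04 over all genes. Pfkfb4 was lower (8.53 against 17.0 and 17.8 FPKM), as was Pgam2, at 0.550 FPKM against 1.39 and 5.59. Bpgm was higher, at 22.4 FPKM against 11.6 and 14.9. Slc2a4 was at 58.5 FPKM against 49.9 and 49.1, and Aldoa at 1228 between the WT values of 1277 and 1134. The Pkm M1 form was at 54.6 FPKM, within the WT values, and M2 at 129.7 FPKM, below them.

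In null replicate 2 the 31 genes summed to 4.48% of all FPKM. Of the 27 members 15 lay above both WT libraries (20.6% of all genes), 11 below both (71.1%) and 1 between, and 23 differed by over 1.5-fold, as 43.3% of all genes did. The median log2 difference was 0.36 over the members and -0.38 over all genes. The muscle forms took over their steps. Pfkm was at 1173 FPKM against 10.4 and 10.9 in WT and 9.10 in null replicate 1. Pgam2 was at 1381 and Eno3 at 2782 FPKM, against at most 5.59 and 11.0 in the other 3 adipose libraries. With them, Pfkm made up 97.5% of phosphofructokinase, Pgam2 94.1% of the phosphoglycerate mutases and Eno3 93.5% of enolase in this library. Aldoa reached 10734 FPKM, Gapdh 1563, Pkm 1619, Ldha 1762 and Tpi1 1281. The forms that lead in WT adipose tissue were lower, with Pfkl at 19.6 FPKM against 58.4 and 53.4, Pgam1 at 41.0 against 108 and 112, and Eno1 at 194 against 505 and 447. Slc2a4 was at 139 FPKM against 49.9 and 49.1 and Hk2 at 45.0 against 27.6 and 19.8, both above WT. Hk1 was at 5.59 FPKM against 10.6 and 7.67, and Hk3 too lay below both WT libraries. Slc2a1 was at 2.77 FPKM against 5.62 and 5.61 and Slc16a1 at 11.1 against 17.8 and 23.8, both below WT. Every one of the 15 muscle genes was above 50 FPKM in this library. The share of the muscle material in the other members' values was not tested.

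Transcript forms separated this library as well. The M1 form of Pkm was at 1477 FPKM and made up 91.2% of the gene, while StringTie put M2 at 142 FPKM, against 137 and 166 in the WT libraries. The mean coverage of the M2 exon did not give that level, with 399 in this library against 1361 and 1454 in WT (not scaled to depth, which was 5.72 Gb here and 9.21 and 9.24 Gb in WT), so that the level of M2 there is uncertain. The M1 exon carried 95.7% of the coverage of the alternative exons, against 21.7% in null replicate 1 and 25.1% and 25.3% in WT. The excess of Pkm in this library therefore lay in the exon shown above as M1. Pfkm also changed its start. A downstream start (first base chr15:98112060, plus strand, mm10) was at 948 FPKM, against 0.404 and 0.766 in WT and 0.408 in null replicate 1. The start upstream of it (first base chr15:98108471), which led in the other 3 adipose libraries with 8.70 to 9.83 FPKM, was at 224. The RefSeq windows of both are shown, chr15:98108221-98108520 and chr15:98111810-98112109, with the 50 bases from the start on in capitals.
Pfkm, upstream start: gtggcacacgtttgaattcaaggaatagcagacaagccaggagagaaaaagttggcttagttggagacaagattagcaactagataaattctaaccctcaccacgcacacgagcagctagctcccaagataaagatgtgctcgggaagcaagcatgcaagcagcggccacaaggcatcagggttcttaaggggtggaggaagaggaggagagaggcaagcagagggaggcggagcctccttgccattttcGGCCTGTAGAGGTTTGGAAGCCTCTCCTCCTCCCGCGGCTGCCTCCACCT
Pfkm, downstream start: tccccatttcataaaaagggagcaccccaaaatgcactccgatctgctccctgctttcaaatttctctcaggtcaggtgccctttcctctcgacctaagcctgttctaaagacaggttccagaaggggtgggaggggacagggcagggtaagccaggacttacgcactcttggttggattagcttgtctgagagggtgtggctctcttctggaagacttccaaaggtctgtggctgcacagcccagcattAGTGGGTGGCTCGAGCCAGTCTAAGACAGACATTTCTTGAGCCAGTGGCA
Neither window holds the MEF2 motif, a site for muscle transcription factors searched on both strands, which 3.19% of all windows hold. Pgam2 and Pfkfb1 hold it among the 30 matched members. The most upstream start of Aldoa was at 4458 FPKM in null replicate 2 against 89.9, 117 and 109 in the other adipose libraries, 41.5% of the gene against 7.04%, 10.4% and 8.84%.

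**Figure D4:**
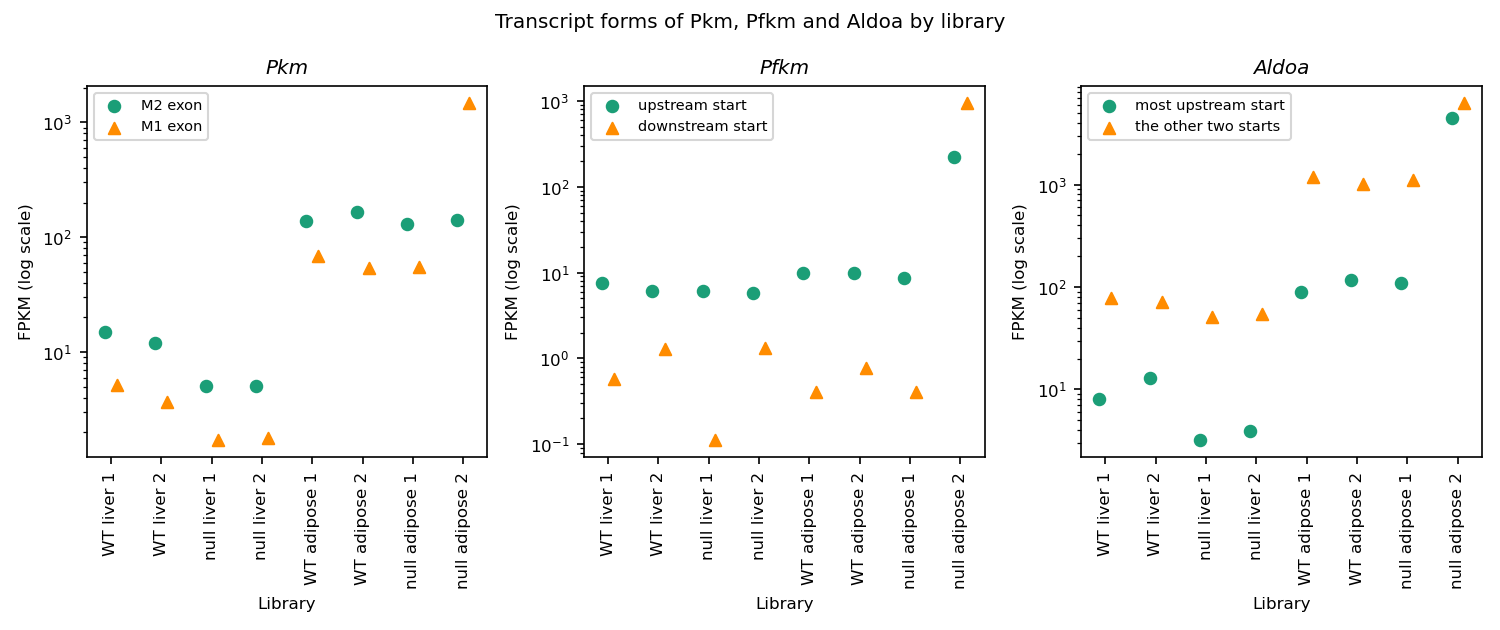
FPKM (log scale) of the M1 and M2 forms of Pkm, of the upstream and downstream starts of Pfkm, and of the most upstream start of Aldoa with the sum of its other two starts, in each of the 8 libraries. The M1 form and the downstream Pfkm start rise above the other form only in null adipose replicate 2.

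Some members lay on the same side of WT in both null adipose libraries, 6 above both WT libraries (Slc2a4, Pfkfb1, Pfkfb2, Tpi1, Bpgm and Ldha) and 4 below both (Pfkl, Pfkfb3, Pgam1 and Eno2), where 9.03% of all genes lay above and 36.1% below. Pfkfb3, the leading bifunctional enzyme of adipose tissue, was at 172 and 163 FPKM in the null libraries against 270.0 and 232 in WT, lower in both null libraries but not past the test (-0.58 ± 0.29, SE, adjusted p = 0.680). Bpgm, which makes 2,3-bisphosphoglycerate and is best known from red cells, was at 22.4 and 45.0 FPKM against 11.6 and 14.9 (1.22 ± 0.39, SE, adjusted p = 0.680). It passed the study's limits, as did Eno2 (1.19 and 0.437 against 1.92 and 2.30 FPKM, -0.81 ± 0.27, SE, adjusted p = 0.680), where 0.707% of all genes were higher and 5.36% lower. The 5 erythroid genes summed to 11674 FPKM in null replicate 1, 3924 in null replicate 2 and 2678 and 4441 in WT, with 1 of 5 higher in both null libraries. Their part in the value of Bpgm was not tested. Bpgm lies on chromosome 6 at 4.92 Mb from Mkrn1, the nearest of the 6 members on that chromosome.

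**Figure D5:**
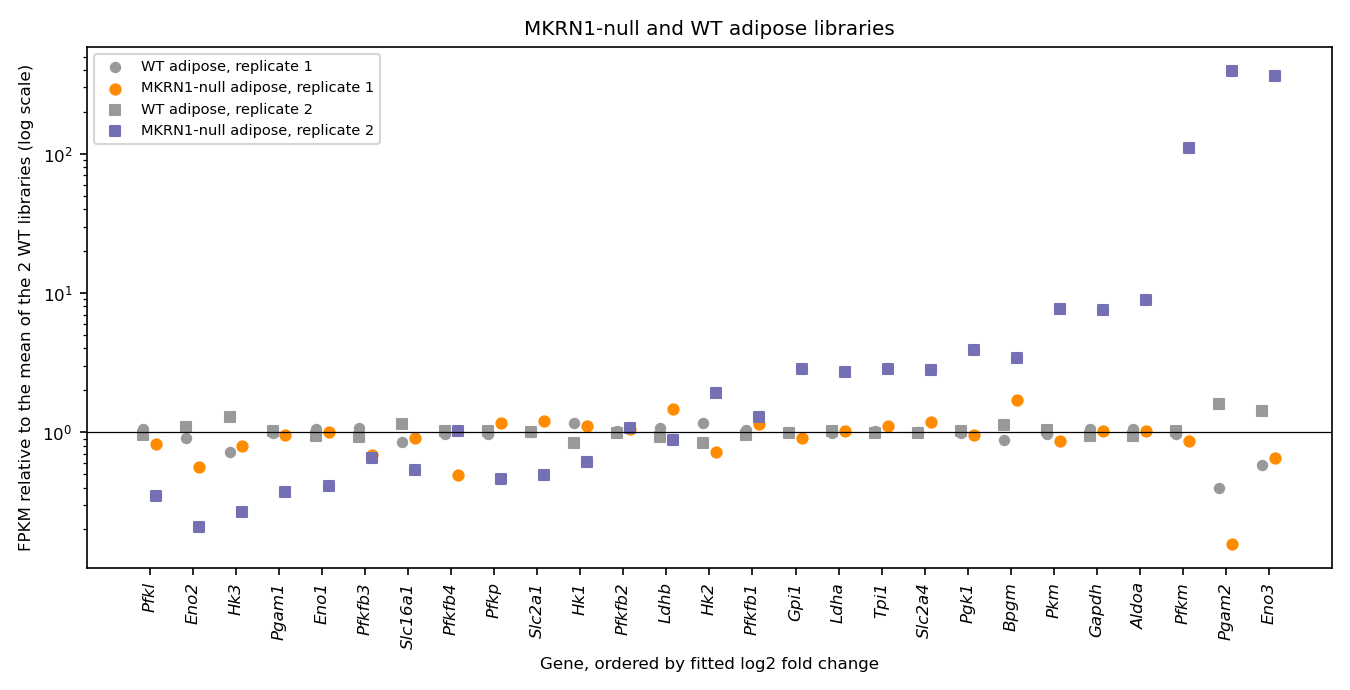
FPKM of the 27 members tested in adipose tissue, relative to the mean of the 2 WT libraries (log scale), with WT in grey, null replicate 1 in orange and null replicate 2 in purple. Null replicate 1 stays close to 1 for most members, whereas null replicate 2 exceeds 100 for Pfkm, Pgam2 and Eno3.

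The adipose calls depended on the library with muscle RNA. With it as the sole null library 13 members were higher (among them Slc2a4, Hk2, Aldoa, Gapdh and Ldha) and 9 lower, where 8.81% of all genes were higher and 43.7% lower, and with null replicate 1 as the sole null library 0 passed. Leaving out either WT library gave 3 calls, Pfkm, Pgam2 and Eno3, all higher, where 0.343% of all genes were higher without WT replicate 1 and 0.404% without WT replicate 2. Each such fit assumes that a lone library varies like the others.

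Other markers were read in the adipose libraries too. Of all genes tested there, 36.1% were lower in both null libraries than in both WT libraries and 9.03% higher. All 3 endothelial genes were lower in both null libraries (90.8 and 42.0 FPKM against 138 and 184), and 3 of 5 macrophage genes were lower in both (summed 1933 and 624 against 1607 and 1974). The hepatocyte list was higher in both, at 465 and 305 against 46.3 and 80.8 FPKM, with Cyp2e1 as the main part and Alb at 16.5 FPKM at most. The 3 keratinocyte genes were at most at 1.54 FPKM. The brown adipocyte genes Ucp1 and Cidea summed to 65.8 FPKM in null replicate 2 against 10.5 to 17.2 in the others. Of the 55 neighbours 48 were tested in adipose tissue and 0 passed. At the study's limits 3 were lower and 0 higher, Hif1a (31.2 and 31.3 against 20.4 and 9.46 FPKM, -1.11), Slc2a10 (4.83 and 4.83 against 3.06 and 1.43 FPKM, -0.89) and Slc16a13 (1.61 and 1.96 against 1.08 and 0.489 FPKM, -0.66).

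Whether the genotype difference differed between the tissues was tested as the interaction of tissue and genotype over the 22 members that passed the filter in both. By limma 0 passed, as did 0 of 9917 genes (0%), and 4 members had an unadjusted p under 0.05 (Hk2, Gpi1, Bpgm and Ldhb, all with a higher value in adipose tissue), where 7.72% of all genes did. Hk2 passed the liver filter only through the WT livers, so that its p does not stand as independent support. In adipose tissue Hk2 was at 16.9 and 45.0 FPKM in null replicates 1 and 2 against 27.6 and 19.8 in WT. Without null adipose replicate 2 the difference passed for Gpi1, Ldhb and Pkm, with a higher value in adipose tissue, as for 2.82% of all genes. Each of these fell in liver, while null adipose replicate 1 was at 105 FPKM against 117 and 116 for Gpi1, 58.3 against 42.7 and 36.8 for Ldhb, and 184 against 205 and 220.4 for Pkm. Without null adipose replicate 1 the difference passed for 15 members, 12 with a higher value in adipose tissue (9.92% of all genes) and 3 with a lower one (16.9%).

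Among promoter windows of the 30 matched members, the letters ACGTG, the core of the element bound by hypoxia-inducible factors, were found on either strand in at least 1 window of 15 members, against 21.8% of 27025 genes. The letters CACGTG, which contain ACGTG and are bound by MYC and related factors, were found in 5 (16.7%), Ldha, Slc16a1, Pfkm, Pfkfb2 and Pfkfb3, against 8.09% of genes. Of the 12 members lower in null liver, Hk2, Pkm, Slc16a1, Gapdh, Aldoa and Pgam1 hold ACGTG, where 50% of the 30 matched members do. Holding it therefore does not set the lower members apart from the list. These are descriptions of the windows, and no test of the factors was made.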

How the data were processed

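Poly(A) RNA of 8 libraries (liver and subcutaneous fat, 2 WT and 2 MKRN1-null libraries each) was sequenced by the authors. The deposited values are other than counts: coverage, FPKM and TPM per transcript, estimated by the authors with StringTie 1.3.3b for a fixed RefSeq annotation of 36780 transcripts on mm10, after HISAT2 and SAMtools, each scaled to the depth of its own library with no normalization between libraries. Composition differences therefore move every gene of a library. Depth was computed as aligned bases (5.72 to 9.24 Gb), which limits the precision of scarce transcripts.

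Transcript values were added up per gene (24532 genes), and log2(FPKM + 1) was fitted with limma 3.58.1 (R 4.3.3, eBayes with a trend). Genes entered a test with an FPKM of 1 or more in 2 or more of the 4 libraries, and p was adjusted by the Benjamini-Hochberg method over all tested genes. A call is an adjusted p under 0.05, and the study's limits stand beside it. The interaction was fitted over all 8 libraries. Isoenzyme shares are percent of the FPKM of the listed genes. The alternatives changed the scaling (TPM, median of ratios, quantile normalization), the pseudocount (0.1), the filter (none, or an FPKM of 5), the variance trend, the block on replicate numbers and, in turn, the library left out. The fit was tested on simulated data. Promoter windows came from RefSeq (mm10 coordinates) and exon sequences from GENCODE transcripts. Python 3.11.15, pandas 2.3.3, numpy 2.4.6 and matplotlib 3.10.9 were used.

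The members, the lists of neighbours and markers and the comparisons were chosen with earlier results of these data known. All 31 members were named, with full statistics for those called in liver and, between the tissues, for the leading ones, the others being given by size and range of p. Of the neighbours, the 4 with the largest called change in liver were named, and in adipose tissue those past the study's limits on 1 side of WT. Mlxipl, Eno1b and the marker genes named were picked by function with their values known. Promoter motifs were chosen with the values known. Isoenzymes outside the members were not analysed here.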

Additional observations from a re-analysis of the deposited data

Results flagged for a closer look

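For 3 members the genotype difference had opposite directions in the tissues, with both null livers below both WT livers and both null adipose libraries above both WT adipose libraries. They are Tpi1, Bpgm and Ldha. The difference itself, adipose minus liver on the log2 scale, was 1.23 ± 0.57 for Tpi1 (SE, adjusted p = 0.688 by limma), 1.72 ± 0.47 for Bpgm (adjusted p = 0.477) and 1.20 ± 0.62 for Ldha (adjusted p = 0.731), so that it did not pass in any of them. In each of the 3 the highest adipose value was in null replicate 2, the library with muscle RNA, at 1281 FPKM for Tpi1, 45.0 for Bpgm and 1762 for Ldha, while null replicate 1 was at 504, 22.4 and 666 FPKM against WT values of 461 and 447, 11.6 and 14.9, and 644 and 663.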

How the results depend on the processing

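In liver the 12 members called kept their direction in every alternative in which they were fitted. With median-of-ratios scaling 6 were called and 6 passed the study's limits, in place of 12 and 11, and with quantile normalization 8 were called. Leaving out 1 library gave 0 to 9 calls. Slc2a2 (0.024), Pfkfb2 (0.11) and Eno3 (0.046) turned positive under median-of-ratios scaling, and Pfkm (0.0073), Pfkfb2 (0.15) and Eno3 (0.13) under quantile normalization. Leaving out 1 library gave Pfkfb1 from -0.073 to 0.23 and Pfkfb2 from -0.23 to 0.11. None of these was called.

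In adipose tissue leaving out 1 library gave 0 to 22 calls and 2 to 23 members past the study's limits, and a filter at an FPKM of 5 or quantile normalization gave 1 past the limits in place of 2. For the interaction, leaving out 1 library gave 0 to 15 calls.

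Between the tissues median-of-ratios scaling gave 12 higher and 12 lower members and quantile normalization 14 and 7, in place of 17 and 6. Under median-of-ratios scaling the sign turned for Slc2a1 (-0.13), Gpi1 (-0.48), Pfkm (-0.24), Pfkfb1 (-0.58), Tpi1 (-0.0046), Pgam1 (-0.31), Bpgm (-0.22) and Slc16a1 (-0.43), and under quantile normalization for Slc2a1 (-0.14), Pfkm (-0.11), Pfkfb1 (-0.28), Bpgm (-0.037), Slc16a1 (-0.16) and Ldha (0.014). TPM turned Eno1 (0.052). The cause of these changes was not tested beyond the scaling itself.

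With the replicate number as a block, 10 members were called in liver, 3 in adipose tissue (Pfkm, Pgam2 and Eno3, with 8 past the study's limits), 25 between the tissues and 0 for the interaction. In none of these 3 did null adipose replicate 1 lie above both WT libraries, so their calls rest on null adipose replicate 2. The sample titles give both tissues of a number the same stem, which may mark a shared animal, but the labels name no animals. Samples of 1 number deviated together only weakly or not at all (correlation of deviations 0.0803 between WT liver and WT adipose tissue, 0.0918 between the null tissues, and -0.0355 and 0.0863 between genotypes). With 2 libraries per group, and muscle RNA in null adipose replicate 2, these correlations cannot decide whether a stem marks a shared animal.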
